A study of Mus musculus with 2 samples.

Results

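Mir148a, Mir148b and Mir152 are the 3 genes of the mouse miR-148 and miR-152 family of microRNAs (miRNAs). They were taken by gene identifier, and all 3 were found among the 1973 miRNA genes with counts. Small RNA shorter than 30 nt had been sequenced from the neural tube, the embryonic structure that forms the brain and spinal cord, of B6NCrl mouse embryos at embryonic day 11.5. The single group held 2 libraries, each made from its own pool of healthy embryos of both sexes. Replicate 1 came from 109 embryos and replicate 2 from 88. There was no treatment, mutation, second stage or second tissue, so the data give the level of each gene and the distance between the libraries. Pooling whole embryonic tissue averages over animals and over cell types.

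A miRNA is cut from a hairpin in a longer transcript, first in the nucleus by Drosha and then in the cytoplasm by Dicer, and is loaded into an Argonaute protein. There its seed, bases 2 to 8 from the 5′ end, pairs with mRNAs, whose output falls. The miR-148 and miR-152 family is known for targeting Dnmt1, the enzyme that copies DNA methylation at replication. It is also known from lipid metabolism in liver, where miR-148a is abundant, and from B cells, where it acts on tolerance and survival genes. The hosts of Mir148b and Mir152 encode paralogous zeta subunits of the COPI coat, which returns vesicles from the Golgi to the endoplasmic reticulum.

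The mature 3p forms show what joins the family and what lets the sequencing tell its members apart, so they are printed first. Sequences are those of RefSeq on GRCm38.p6, written 5′ to 3′ with the seed in capitals.
miR-148a-3p: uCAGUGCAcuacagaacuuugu
miR-148b-3p: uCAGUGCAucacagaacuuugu
miR-152-3p: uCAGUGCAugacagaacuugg
The seed was identical in all 3, and no other of the 1738 mature mouse miRNAs in the table carried it at bases 2 to 8. Counted from 1 at the 5′ end, miR-148b-3p differed from miR-148a-3p at 2 of 22 positions, by C9U and U10C. Against miR-148a-3p, miR-152-3p differed at 3 of the 21 positions compared, by C9U, U10G and U20G. Against miR-148b-3p, miR-152-3p differed at 2 positions, by C10G and U20G. The differences lay directly after the seed and near the 3′ end.

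The 5p forms, from the other arm of each hairpin, were less alike. They are shown because counts are per hairpin gene and cannot be split by arm.
miR-148a-5p: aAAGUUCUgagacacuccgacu
miR-148b-5p: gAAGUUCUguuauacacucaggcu
miR-152-5p: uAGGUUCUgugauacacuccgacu
The seed of miR-148a-5p was shared with miR-148b-5p alone among the 1738 mature forms, and that of miR-152-5p with none. Nothing in these counts says which arm the reads came from.

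The hairpins are given with both mature arms in capitals, since they are what the reads were counted against.
Mir148a hairpin: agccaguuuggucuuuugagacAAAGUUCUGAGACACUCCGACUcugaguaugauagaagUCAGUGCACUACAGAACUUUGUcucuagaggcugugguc
Mir148b hairpin: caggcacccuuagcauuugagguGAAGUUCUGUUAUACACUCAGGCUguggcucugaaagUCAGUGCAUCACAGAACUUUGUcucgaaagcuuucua
Mir152 hairpin: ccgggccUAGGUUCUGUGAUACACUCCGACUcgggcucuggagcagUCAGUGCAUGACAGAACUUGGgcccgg
The hairpins of Mir148a and Mir148b were 99 and 97 nt long and that of Mir152 was 73 nt. Across 2202 annotated miRNA hairpins, read on both strands, the longest run that Mir148a shared with another was 15 nt, with Mir148b. For Mir152 it was 13 nt, with Mir3473f. These runs are shorter than the mature forms, so a full-length read of one member does not match another member exactly. Matches elsewhere in the genome were not analysed here.

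Mir148a (ENSMUSG00000065505.1) lies at chr6:51269812-51269910 on the minus strand of GRCm38, also called mm10, in the GENCODE M21 annotation. No annotated gene overlaps it. The nearest gene is the noncoding Gm32479 at 13.6 kb, and the nearest protein-coding gene is Nfe2l3 at 162.8 kb. Mir148b (ENSMUSG00000065560.1) lies at chr15:103285125-103285221 on the plus strand, in an intron of Copz1 on the same strand, with no overlap with an exon in any of the 4 Copz1 transcripts that span it. Mir152 (ENSMUSG00000065515.1) lies at chr11:96850393-96850465 on the plus strand, in an intron of Copz2 on the same strand, again clear of every exon of the 3 transcripts that span it.

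The members were present at moderate to low levels. Levels are in CPM, a gene's own-strand count per 1000000 own-strand counts on all miRNA genes of the library. Mir148a had 364 CPM (1351 counts) in replicate 1 and 272 CPM (1102 counts) in replicate 2. Mir148b had 269.6 CPM (1000 counts) in replicate 1 and 305 CPM (1236 counts) in replicate 2. Mir152 had 53.9 CPM (200 counts) in replicate 1 and 49.3 CPM (200 counts) in replicate 2. Mir148a was thus higher in replicate 1 and Mir148b higher in replicate 2, while Mir152 was close in both and below the others in both. In bulk tissue, fewer cells of a type and less RNA per cell cannot be told apart.

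As means over both libraries, Mir148a held 318 ± 65.5 CPM, Mir148b 287 ± 24.8 CPM and Mir152 51.6 ± 3.26 CPM (SD, n = 2). The ranges of Mir148a and Mir148b over the libraries overlapped, so their order was not resolved. Mir152 lay below both in each library. By mean CPM, Mir148a had rank 141, Mir148b rank 145 and Mir152 rank 241 of 1973 genes, of which 724 had any count. Reads that map to more than 1 place are in no gene's count, so genes that share a mature sequence with another gene, such as Mir26a-1 and Mir26a-2, stand at lower limits, and these are ranks of the deposited counts. In replicate 1 their ranks were 140, 153 and 245, and in replicate 2 they were 145, 140 and 237. No member had a read on the opposite strand in either library, which allows up to 0.809 CPM in replicate 1 and 0.740 CPM in replicate 2 (3 counts, counting error only).

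**Figure D1:**
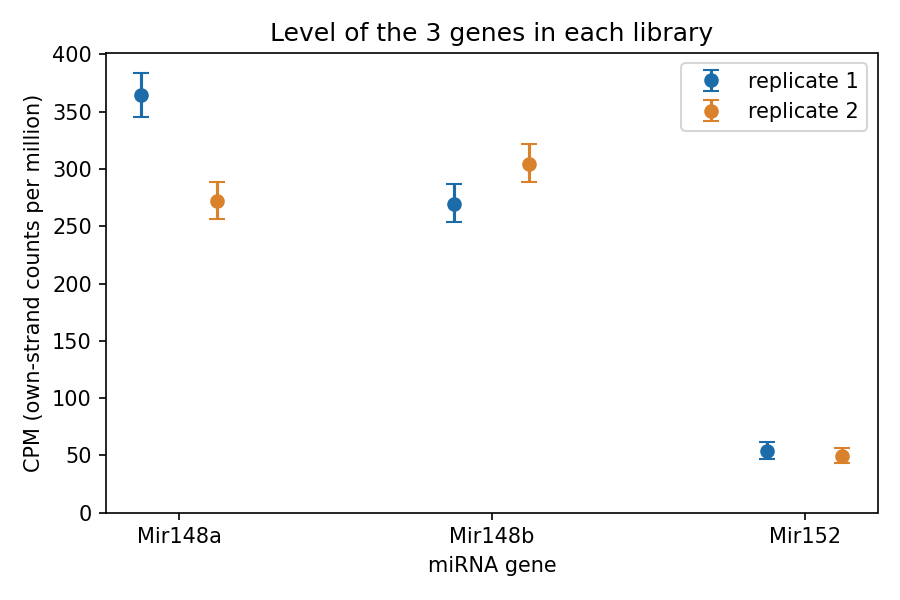
Own-strand CPM of Mir148a, Mir148b and Mir152 in replicate 1 (left point of each pair) and replicate 2 (right point), with 95% Wilson intervals of the counts as bars. Mir148a stands at 364 CPM in replicate 1 and 272 CPM in replicate 2, Mir148b at 269.6 CPM in replicate 1 and 305 CPM in replicate 2, and Mir152 at 53.9 CPM in replicate 1 and 49.3 CPM in replicate 2.

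Together the 3 genes took 0.0688% of miRNA gene counts in replicate 1 (95% Wilson interval 0.0662 to 0.0715) and 0.0626% in replicate 2 (0.0602 to 0.0651), a mean of 0.0657% ± 0.00439 (SD, n = 2). The summed family counts were 2551 in replicate 1 and 2538 in replicate 2. The intervals treat reads as independent molecules and cover counting error only.

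Within the family, Mir148a and Mir148b exchanged first place between the libraries. Mir148a formed 53.0% of family counts in replicate 1 (95% Wilson interval 51.0 to 54.9) and 43.4% in replicate 2 (41.5 to 45.4). Mir148b formed 39.2% in replicate 1 (37.3 to 41.1) and 48.7% in replicate 2 (46.8 to 50.6). Mir152 formed 7.84% in replicate 1 (6.86 to 8.95) and 7.88% in replicate 2 (6.89 to 8.99). The intervals of the 2 libraries were apart for Mir148a and for Mir148b and nearly coincided for Mir152. These shares do not depend on how the libraries are scaled.

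**Figure D2:**
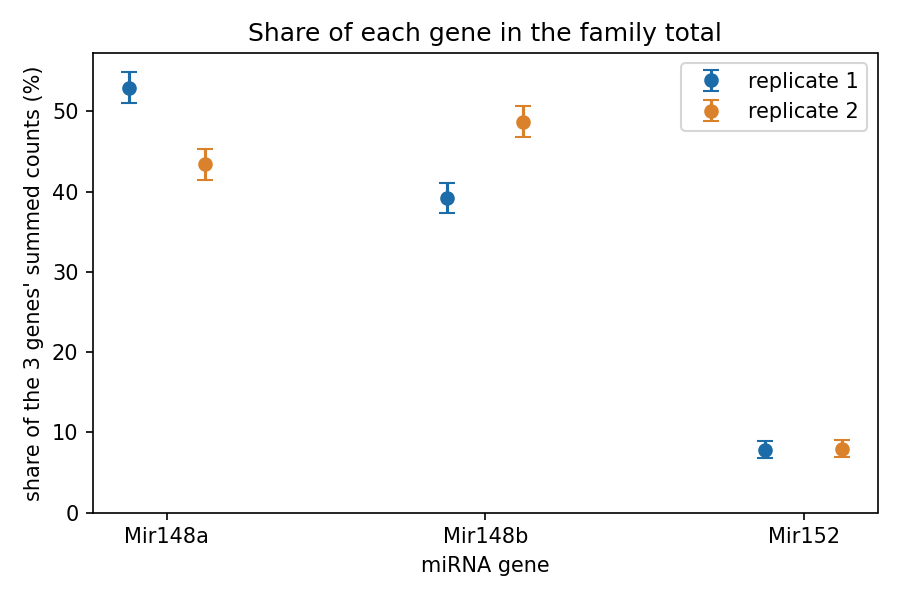
Share of each gene in the summed counts of Mir148a, Mir148b and Mir152, in percent, for replicate 1 (left) and replicate 2 (right), with 95% Wilson intervals. Mir148a stands at 53.0% in replicate 1 and 43.4% in replicate 2, Mir148b at 39.2% in replicate 1 and 48.7% in replicate 2, and Mir152 at 7.84% in replicate 1 and 7.88% in replicate 2.

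The same exchange appears in the ratios within a library. Mir148a over Mir148b was 1.35 in replicate 1 (95% exact interval 1.24 to 1.47) and 0.892 in replicate 2 (0.821 to 0.968). Mir148a over Mir152 was 6.75 in replicate 1 (5.82 to 7.88) and 5.51 in replicate 2 (4.74 to 6.44). Mir148b over Mir152 was 5.00 in replicate 1 (4.29 to 5.85) and 6.18 in replicate 2 (5.32 to 7.21). Both larger members exceeded Mir152 by at least 5.00-fold in each library, and the intervals against Mir152 overlapped between libraries. How evenly the method captures different miRNAs was not measured, so these are ratios of counts.

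The distance between the libraries was then set against counting noise for the 444 genes whose counts summed to 10 or more. An exact binomial test, two-sided, was adjusted over these 444 genes by Benjamini and Hochberg. It compares 2 libraries and not conditions, and it counts PCR duplicates as separate molecules, which lowers its p-values. Of the tested genes 53.2% passed, 45.3% higher in replicate 1 and 7.88% higher in replicate 2, so passing is common here. Mir148a passed as higher in replicate 1, at a log2 ratio of replicate 1 over replicate 2 of 0.42 (exact binomial adjusted p = 2.05e-12). Mir148b passed in the opposite direction, at -0.18 (exact binomial adjusted p = 0.00855). Mir152 did not pass, at 0.13 (exact binomial adjusted p = 0.527).

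Among all tested genes, Mir148a lay close to the median and Mir148b lay toward replicate 2. The median log2 ratio of the 444 genes was 0.27. Mir148a stood 0.15 above it on the log2 scale, and 296 genes lay farther from the median. Mir148b stood 0.44 below it, and 127 genes lay farther. Mir152 stood 0.14 below it, and 305 genes lay farther. By total-count CPM, the coefficient of variation over the 2 libraries was 20.6% for Mir148a, 8.64% for Mir148b and 6.32% for Mir152. The median was 13.9% over the 272 genes whose counts summed to 200 or more (quartiles 7.09% and 20.9%). The order of Mir148a and Mir148b in this measure depends on the scaling. Under each of the other scalings given below, the log2 ratio of Mir148b lay farther from 0 than that of Mir148a.

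**Figure D3:**
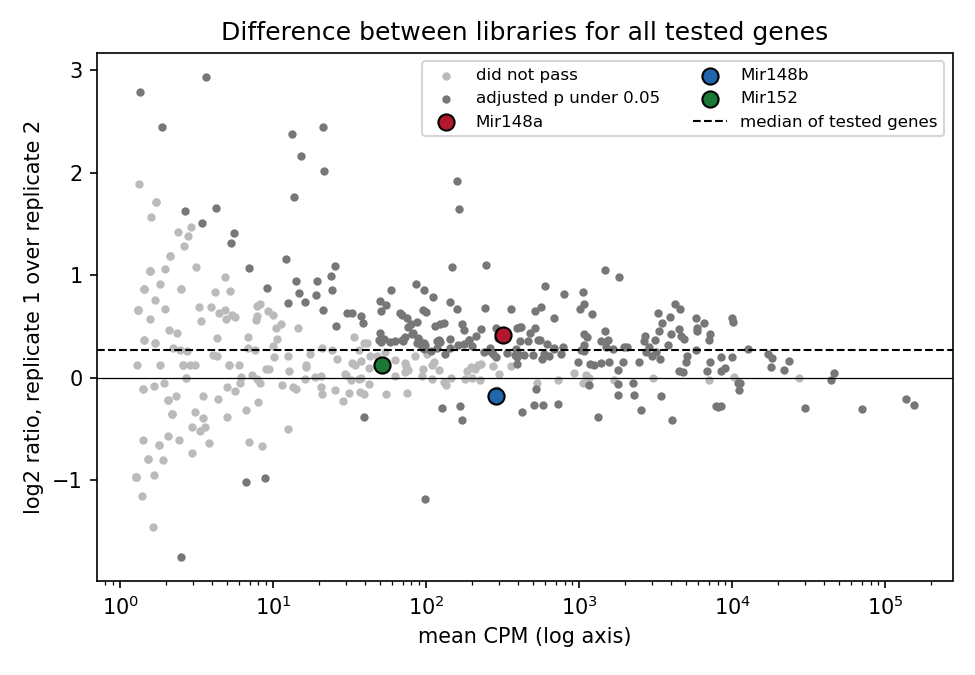
Log2 ratio of replicate 1 over replicate 2 against mean CPM (log axis) for the 444 tested genes. Dark points passed the exact binomial test, the dashed line marks the median of 0.27, Mir148a stands at 0.42, Mir152 at 0.13 and Mir148b at -0.18.

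Mir148a and Mir148b kept their opposite directions when the libraries were scaled otherwise. TMM, the trimmed mean of M values, gave log2 ratios of 0.14 for Mir148a (exact binomial adjusted p = 0.0454) and -0.46 for Mir148b (exact binomial adjusted p = 2.65e-13). With DESeq2's size factors they were 0.19 and -0.41, and with the total taken without the 10 most abundant genes 0.22 and -0.38, and both passed in each case. Of all tested genes 40.1% passed with TMM, 42.1% with DESeq2's size factors and 41.4% without the 10 most abundant genes. Mir152 moved to the other side of 0 under all 3, at -0.16, -0.11 and -0.08, and passed under none. The split of calls itself depended on the scaling, with 201 genes higher in replicate 1 and 35 in replicate 2 by total counts, 82 in replicate 1 and 96 in replicate 2 by TMM, 102 in replicate 1 and 85 in replicate 2 by DESeq2's size factors, and 110 in replicate 1 and 74 in replicate 2 without the 10 most abundant genes. As shares of all tested genes, 18.5% were higher in replicate 1 by TMM, 23% by DESeq2's size factors and 24.8% without the 10 most abundant genes. TMM put the median log2 ratio of the tested genes at -0.02 in place of 0.27.

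**Figure D4:**
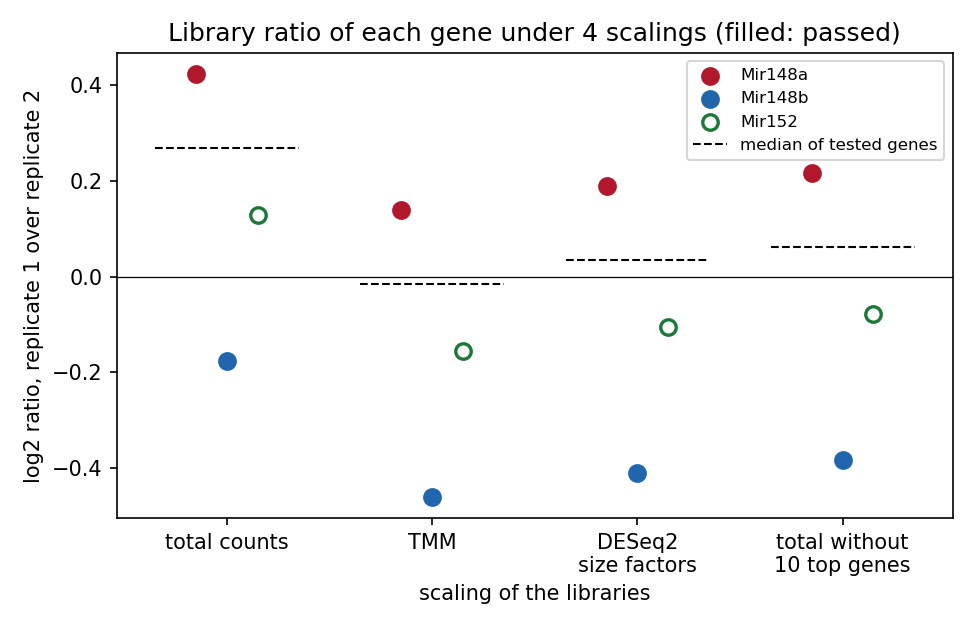
Log2 ratio of replicate 1 over replicate 2 for Mir148a, Mir148b and Mir152 under 4 scalings, with filled points for genes that passed the exact binomial test and dashes for the median of the 444 tested genes. Mir148a stays above 0 (0.14 to 0.42), Mir148b stays below 0 (-0.46 to -0.18), and Mir152 is above 0 for total counts only.

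Genes closest to each member over the 2 libraries were found by Euclidean distance of log2(CPM + 1). Nearest to Mir148a was Mir181a-2, of a family known from lymphocytes and brain, at a distance of 0.17, with 332 CPM in replicate 1 and 253 CPM in replicate 2. Mir542 and the epithelial Mir200c followed at 0.18 and 0.24. Nearest to Mir148b was Mir218-2, of the motor neuron miRNA family, at 0.05, with 279 CPM in replicate 1 and 303 CPM in replicate 2. Mir195a, of the miR-15/16 family, and Mir185 followed at 0.11 and 0.17. Nearest to Mir152 was Mir675, which is cut from the imprinted H19 transcript, at 0.12, with 58.5 CPM in replicate 1 and 49.1 CPM in replicate 2. Mir141, of the miR-200 family, and Mir338, known from oligodendrocytes, followed at 0.16 and 0.17. Mir181a-2 and Mir218-2 share a mature form with Mir181a-1 and Mir218-1, so their values are lower limits. With 2 libraries this likeness is one of level and of the direction between libraries only.

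All 3 members lie near Hox clusters, the gene arrays that pattern the body from head to tail and that carry miRNA genes of their own. Each lies on the chromosome of a different cluster, Mir148a on that of Hoxa, Mir152 on that of Hoxb and Mir148b on that of Hoxc. No member lies on chromosome 2, where the Hoxd cluster is.

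The distances to the nearest Hox cluster miRNA were 960 kb from Mir148a to Mir196b, 533 kb from Mir152 to Mir10a and 270.1 kb from Mir148b to Mir615. Outside the Hox cluster miRNAs themselves, 11 of 1888 matched miRNA genes (0.583%) lay within 1 Mb of one, a window chosen after the distances had been seen. The members were the most abundant of these 11. The others ranged from 0 to 2.42 CPM on average, with Mir3063 the highest, against 51.6 CPM for Mir152. Levels at or near 0 are common here, since 724 of all 1973 genes had any count. Whether nearness to a Hox cluster goes with level was not tested.

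**Figure D5:**
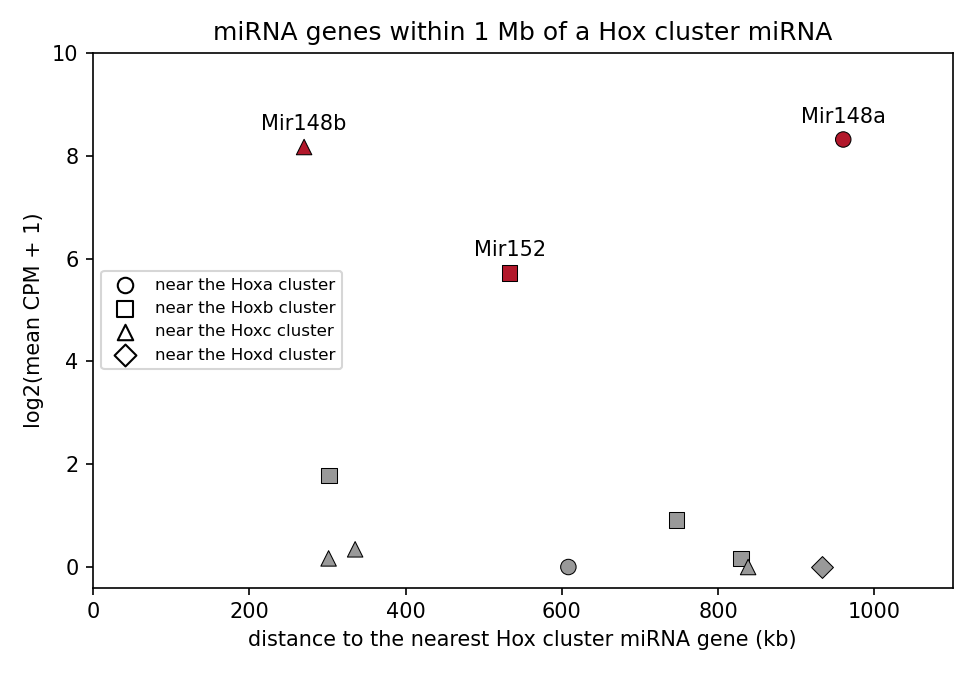
Level as log2(mean CPM + 1) against distance to the nearest Hox cluster miRNA gene in kb for the 11 miRNA genes within 1 Mb of one, with the marker shape giving the cluster and the members in red. Mir148b at 270.1 kb, Mir152 at 533 kb and Mir148a at 960 kb stand above the other 8 genes, which reach at most 2.42 CPM. Low levels are common, as 724 of all 1973 genes had any count.

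On each member's chromosome at least 1 Hox cluster miRNA stood far above the member. Mir196b, on the chromosome of Mir148a, had 10590 CPM in replicate 1 and 11529 CPM in replicate 2. Mir10a, on the chromosome of Mir152, had 139047 CPM in replicate 1 and 167000 CPM in replicate 2. Mir615, on the chromosome of Mir148b, had 13954 CPM in replicate 1 and 11497 CPM in replicate 2. Mir196a-2, also on the chromosome of Mir148b, was closer to the members, with 1551 CPM in replicate 1 and 1206 CPM in replicate 2. Mir196a-1, also on the chromosome of Mir152, had 41.3 CPM in replicate 1 and 43.1 CPM in replicate 2. Both Mir196a genes give the same miR-196a-5p, so their values are lower limits and the order of Mir196a-1 and Mir152 is not resolved. By total counts Mir615 was higher in replicate 1 (log2 ratio 0.28) and Mir10a in replicate 2 (-0.26). Under TMM scaling Mir615 stood at -0.01 and did not pass. With DESeq2's size factors it stood at 0.045, and without the 10 most abundant genes at 0.072. It passed as higher in replicate 1 in both cases, beside 23% and 24.8% of all tested genes in that direction.

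Like Mir148b and Mir152, other miRNA genes sit in introns of paralogous protein-coding genes, and the summed levels of their families were higher. The members' sum used here includes Mir148a, which has no annotated host, so the ratios are not limited to intronic members. Mir107 and the Mir103 genes, in introns of the pantothenate kinase genes, summed to 1380 CPM in replicate 1 and 1258 CPM in replicate 2, which was 2.01 times the sum of the 3 members in each library. The Mir26 genes, in introns of the Ctdsp phosphatase genes, summed to 10733 CPM in replicate 1 and 11104 CPM in replicate 2. That was 15.6 times the members' sum in replicate 1 and 17.7 times in replicate 2. Mir107 had 1302 CPM in replicate 1 and 1197 CPM in replicate 2, and Mir26b had 10694 CPM in replicate 1 and 11063 CPM in replicate 2. The Mir26a genes share their mature sequence, as do the Mir103 genes, and reads that map to more than 1 place are in no gene's count, so these sums are lower limits and the split of counts within these families is set by the counting. By total counts 2 of 3 genes of the Mir103 and Mir107 list passed as higher in replicate 1 and none in replicate 2. In the Mir26 list 1 of 3 passed as higher in replicate 2 and none in replicate 1. Of all tested genes 45.3% passed as higher in replicate 1 and 7.88% as higher in replicate 2. With TMM scaling Mir107 and Mir26b passed as higher in replicate 2, beside 21.6% of all tested genes, and Mir103-2 no longer passed.

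A list of 9 other miRNA genes known for targeting DNA methyltransferase mRNAs was read beside the members. By total counts 5 of the 7 tested passed as higher in replicate 1 and 0 as higher in replicate 2, beside 45.3% and 7.88% of all tested genes, with a median log2 ratio of 0.34 beside 0.27 over all tested genes. With TMM scaling 1 passed as higher in replicate 1 and 2 in replicate 2, beside 18.5% and 21.6% of all tested genes. Mir342 led the change, at 5586 CPM in replicate 1 and 3500 CPM in replicate 2, a log2 ratio of 0.67 by total counts (its exact binomial adjusted p was too small to be stored and is listed as 0) and 0.39 by TMM. Mir29c, of the miR-29 family that targets Dnmt3a and Dnmt3b, had 99.5 CPM in replicate 1 and 75.9 CPM in replicate 2, and Mir29a had 45.8 CPM in replicate 1 and 36.2 CPM in replicate 2. Mir29b-1 had 2 counts and Mir29b-2 had 3 counts in each library, and both were not tested. These genes share miR-29b-3p, so their counts are lower limits. Mir148a and Mir148b were each more abundant than Mir29a and Mir29c in both libraries. The list as a whole stood above the members, at 14165.8 CPM in replicate 1 and 10752.5 CPM in replicate 2. That was 20.6 times the members' sum in replicate 1 and 17.2 times in replicate 2. Mir143, at 6327 CPM in replicate 1 and 5251 CPM in replicate 2, Mir342 and Mir101b each exceeded every member in both libraries. Mir143 is also counted in the mesenchyme list given below, so that list and this one overlap.

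In the RefSeq table, 7 mature miRNAs carry the run CAGUGCA at bases 1 to 7, one base earlier than the members. They include miR-130a-3p, shown here with that run in capitals.
miR-130a-3p: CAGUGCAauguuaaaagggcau
Their seeds, bases 2 to 8, therefore differ from the family's. The 6 genes of these forms with a row summed to 35929 CPM in replicate 1 and 36980 CPM in replicate 2, which was 52.2 times the members' sum in replicate 1 and 59.1 times in replicate 2. Mir130a gave most of it, with 27112 CPM in replicate 1 and 27120 CPM in replicate 2.

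The match to the seed was looked for in annotated mouse 3′ UTRs, to show what the members can pair with. The motif TGCACTG, the complement of the seed on the mRNA strand, was in 2672 of 20997 longest 3′ UTRs of coding genes (12.7%). Followed by an A, as TGCACTGA, it was in 755 (3.60%). Both were searched on the mRNA strand only, and the longer motif contains the shorter. Of 8 genes listed because they are reported targets in mouse or human cells, 7 held the shorter motif and 3 the longer. The list was drawn up from known targets, so its counts are a description of where the sites are. The longer sites of these 3 genes are printed 5′ to 3′ in DNA letters, with the match in capitals.
Dnmt1: ccagagccccacgTGCACTGAt
Gadd45a: aactgaaccaaatTGCACTGAa
Bcl2l11: ttcctttacgtttTGCACTGAt
The site in Dnmt1 starts at base 23 of a 3′ UTR of 312 bases. That in Gadd45a, a stress gene, starts at base 32 of 563, and that in Bcl2l11, a pro-apoptotic gene, starts at base 4080 of 4218. Bcl2l11 held the shorter motif 3 times, and the lipid transporter gene Abca1 held it 2 times. Dnmt3b held none in its 3′ UTR. The mRNAs were not measured in this series.

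The libraries held 8530505 reads in replicate 1 and 7655421 in replicate 2, with 3708662 own-strand counts on miRNA genes in replicate 1 and 4055883 in replicate 2. The neural marker Mir92b held 5250 CPM in replicate 1 and 4708 CPM in replicate 2, and Mir137 held 2169 CPM in replicate 1 and 1761 CPM in replicate 2. Copies of Mir9 and Mir124a, which share their mature sequences, reached at most 200.5 CPM, and Mir9-1 had no row used here. The counts of marker genes past the test stand beside the shares of all tested genes. By total counts these were 45.3% higher in replicate 1 and 7.88% higher in replicate 2. With TMM scaling they were 18.5% and 21.6%. Of 7 neural genes tested, 2 passed as higher in replicate 1 and 0 in replicate 2 by total counts, and 0 and 2 with TMM scaling. The endothelial Mir126a had 24945 CPM in replicate 1 and 22302 CPM in replicate 2. It passed as higher in replicate 1 by total counts and as higher in replicate 2 with TMM scaling. Blood genes summed to 1015 CPM in replicate 1 and 733 CPM in replicate 2. All 5 of 5 tested passed as higher in replicate 1 (2 of 5 with TMM scaling), and none was at 0. Mir142, also on the blood list, had no row used here. The liver list, from a tissue rich in miR-148a, summed to 137.0 CPM in replicate 1 and 136.6 CPM in replicate 2, with none of 3 tested passing by total counts. Its gene Mir194-2 passed as higher in replicate 2 with TMM (exact binomial adjusted p = 0.00572), with DESeq2's size factors (0.0153) and without the 10 most abundant genes (0.026), beside 21.6%, 19.1% and 16.7% of all tested genes in that direction. The list's defining gene Mir122 held 7.82 CPM in replicate 1 and 7.89 CPM in replicate 2. The mesenchyme list summed to 24358 CPM in replicate 1 and 17966 CPM in replicate 2, with 6 of 7 higher in replicate 1 (2 of 7 with TMM scaling) and none at 0. Of 4 muscle genes tested, 1 was higher in replicate 1 and 2 in replicate 2, by total counts and with TMM scaling. Mir206 had 1358 CPM in replicate 1 and 761 CPM in replicate 2. Mir208b went the other way, with 60.1 CPM in replicate 1 and 136 CPM in replicate 2, as did Mir208a. Mir133a-1 and Mir133a-2, which share their mature form and so lose such reads from the count, were listed at 0. Mir1a-1 had 1 count in replicate 1 and 0 in replicate 2 and was not tested. Mir1a-2 had no row used here. The part of blood or mesenchyme RNA in the difference of Mir148a was not tested.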

How the data were processed

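Per the file headers, the authors deposited raw counts of reads per miRNA gene, made on mm10 with annotation M4 of GENCODE. Their 3 unnamed columns were read from layout and values as reads on either strand, the own strand and the opposite strand, and own-strand counts were used. Aligner, counter and trimming were not stated (not given in the sources used here). Rows naming no gene were left out; they held 56.5% of replicate 1 and 47.0% of replicate 2. Of these, reads mapped to several places were 25.2% and 27.3% of all reads. The number of per-sample columns not tied to a sample was 0.

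Gene identifiers were matched to GENCODE M21 (GRCm38) for 1894 of 1973 genes. RefSeq held all 3 members, on GRCm38.p6. A gene's 3′ UTR was the longest after a stop codon in its coding transcripts. Members, lists and target genes were chosen with earlier results of these data known, and some target genes are not reported here. Named genes were the members, the 3 nearest to each by log2(CPM + 1), and the listed genes.

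CPM was the own-strand count per 1000000. With 1 group of 2 libraries no group test exists. Each gene with 10 or more summed counts was therefore put to an exact binomial test (two-sided) of its split between the libraries, at a threshold of 0.05. It was run first on simulated counts that held set fold changes and counting noise only. That run cannot tell how the test behaves on the larger spread between real pools. Log2 ratios carry a pseudocount of 0.5 counts. The replicates were separate pools of embryos, per the labels, so the test covers the distance between these pools only. Scaling factors came from edgeR 4.0.16 and DESeq2 1.42.0 under R 4.3.3, the rest from Python 3.11.15, scipy 1.17.1 and statsmodels 0.14.6.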

Additional observations from a re-analysis of the deposited data

How the results depend on the processing

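The levels depend on what they are divided by. Without the 10 most abundant genes in the total, Mir148a, Mir148b and Mir152 averaged 738, 676 and 120.6 CPM of that total and the family share was 0.153%. With all reads as the total they averaged 151, 139 and 24.8 CPM of that total, and the share was 0.0315%. Both changes follow from the smaller or larger total. Mir152's log2 ratio turned from 0.13 to -0.16 with TMM, -0.11 with DESeq2's size factors and -0.078 without the 10 most abundant genes, and passed under none. Each of these scalings shifts all log2 ratios alike. Of 21 alternative log2 ratios of the members between the libraries, 18 kept direction and side of the threshold, among them all of Mir148a and Mir148b. The 3 that turned were those of Mir152 under the other scalings. The settings of strand, count minimum and pseudocount could hardly move these ratios, so the 18 is no measure of robustness. Only the other scalings could move them. The count of genes past the test ranged from 178 with TMM to 245 with counts on either strand, against 236.

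With 1 of 2 libraries left out, a mean becomes the other library's value, which shows the spread and no more. The mean CPM then ranged from 272 to 364 for Mir148a, from 269.6 to 305 for Mir148b and from 49.3 to 53.9 for Mir152. The mean log2 ratio of Mir148a over Mir148b within a library was 0.13, and it was 0.43 without replicate 2 and -0.17 without replicate 1. No paired analysis was possible because the series has 1 group. The 200 counts of Mir152 per library limit what could be told for it.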
